A study of Mus musculus with 46 samples.

Results

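The gene set described here comprised the 46 mouse genes for acyl-CoA activation, acyl-CoA hydrolysis and fatty acid oxidation, chosen by name from a fixed list: 14 acyl-CoA synthetases, 6 acyl-CoA thioesterases and 26 enzymes of the carnitine shuttle, beta-oxidation and electron transfer. All 46 were found among 21631 protein-coding genes of the reference annotation, and all 46 were among the 16082 genes tested. Values came from native chromatin immunoprecipitation sequencing (ChIP-seq) of frozen livers of female mice aged 11 weeks on the FVB background, kept on standard chow. The PA group was a hypomorphic model of propionic acidemia, Pcca-/- carrying the A138T allele, with reduced activity of propionyl-CoA carboxylase, whose alpha subunit Pcca encodes. The WT group was of the same sex, age and background. Each genotype had 18 libraries in the comparisons, with 2 livers for each of 9 antibodies. One chromatin preparation, called A, gave H3K9ac, H3K27ac, H4K16ac and H4K16bu, and the other, called B, gave H4K5ac, H4K5pr, H4K12ac, H4K12pr and H4K16pr. Here ac, pr and bu stand for acetyl, propionyl and butyryl groups on the named histone lysine. The labels do not give the promoter that drives the A138T allele, and whether 1 liver gave both preparations of a number is not stated. The p-values below therefore measure the spread between these preparations.

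Acyl-CoA synthetases join a fatty acid to coenzyme A and so make the acyl-CoA that oxidation, lipid synthesis and histone acylation use. Thioesterases split acyl-CoA back into free acid and coenzyme A, and carnitine transferases move acyl groups between coenzyme A and carnitine. Beta-oxidation shortens acyl-CoA in repeated cycles of dehydrogenation, hydration, a second dehydrogenation and thiolysis, in mitochondria and peroxisomes, and hepatocytes are among the main sites of this pathway. Propionyl-CoA, which PA livers clear poorly, arises from odd-chain fatty acids and from several amino acids, and it is the donor for histone propionylation.

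The deposited values were the positions of peaks, with no height or score, so a gene was described by the share of its window that peaks covered. The window was the gene with 2.5 kb on either side (GRCm38), and the share was averaged over the antibodies of a preparation. PA libraries held 44068 to 70886 peaks and WT libraries 32358 to 63531. Peaks covered 98.5 to 165 Mb in PA libraries and 47.8 to 148 Mb in WT libraries, and the preparation means were 124 to 143 Mb in PA and 101 to 112 Mb in WT without overlap. Of the 36 libraries compared, the one covering the fewest bases was H4K16ac of WT preparation A replicate 2. The part of this overall difference in the results below was not tested, and counts and class medians are also given after quantile normalization. Over Pcca itself, peaks covered 4.35% ± 0.347 of the window in PA and 4.62% ± 0.550 in WT (SD, n = 4 preparations each; limma adjusted p = 0.599), and coverage cannot check a missense allele. Of the hepatocyte markers, 7 of 7 found in the annotation carried peaks, with a summed coverage of 374% to 483% in PA preparations and 308% to 458% in WT preparations. Summed coverage of 5 sinusoidal endothelial markers, all with peaks, was 112% to 136% in PA and 84.2% to 127% in WT. Of 5 cholangiocyte markers 2 carried peaks, with 34.4% to 44.2% in PA and 20.6% to 33.3% in WT. Most of this sum was Sox9 alone, and Krt7, Krt19 and Epcam were at 0 in all 36 libraries. Stellate cell markers (5 of 5 with peaks) had 2.54% to 16.1% in PA and 0.321% to 13.4% in WT. Kupffer cell markers (4 of 5, Marco at 0) had 0% to 18.5% in PA and 0% to 21.8% in WT, and lymphocyte markers (4 of 5, Cd3e at 0) had 5.62% to 11.7% in PA and 4.13% to 8.21% in WT. By limma, Cps1 of the hepatocyte, Stab2 of the endothelial, Sox9 of the cholangiocyte (34.3% in PA and 18.9% in WT, adjusted p = 0.00999) and Des of the stellate cell markers were higher in PA. None of these markers was lower. Over all genes tested, 18.3% were higher in PA and 0.721% lower. The part of other cell types in the results below was not tested. A peak in more of the cells and a stronger signal in each cell cannot be told apart in whole tissue.

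Peaks were listed at the starts of most of these genes. Among the 40 members with an annotated start, 37 (92.5%) had a peak within 2.5 kb of the start in every one of the 36 libraries, against 51.4% of the 12822 tested genes with a start. The mean covered length in that 5000 bp window had a median of 4041 bp over members and 2239 bp over all genes. The exceptions among members were Acss1, the mitochondrial acetyl-CoA synthetase, with a start peak listed in 14 of 18 PA and 6 of 18 WT libraries, Acsl6, a long-chain synthetase known from brain, with 2 of 18 PA and 0 of 18 WT libraries, and Acadl, the long-chain acyl-CoA dehydrogenase, with 17 of 18 in each genotype. At the start itself a mean of 93.9% of the 40 members was covered in PA libraries and 92.2% in WT libraries. At 2 kb before the start the share was 49.2% in PA and 36.1% in WT, while at 2 kb into the gene it was 67.2% in PA and 65.6% in WT. For all tested genes the shares at 2 kb before were 23.2% in PA and 17.3% in WT, and at 2 kb into the gene they were 28.1% in PA and 23.2% in WT. The members were thus covered at more starts than the average gene in both genotypes. The PA and WT curves of the members lay apart on the upstream side and close together up to 3000 bp into the gene. Farther in they parted again, with 32.1% in PA and 25.6% in WT at 4750 bp. The 5000 bp start window held a median of 56.1% of a member's covered bases, and under 50% in 18 of the 40 members, with the lowest share, 11.6%, in Acsl1. These curves and shares are a description and carry no test.

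**Figure D1:**
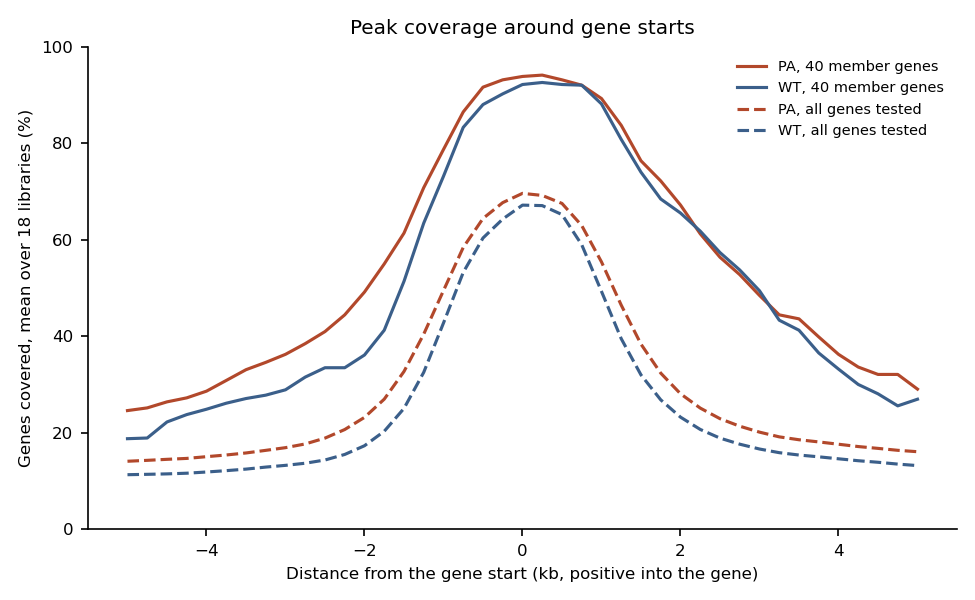
Share of genes covered by peaks (%, mean over 18 libraries per genotype) against distance from the gene start (kb), for the 40 members with a start (solid) and all tested genes (dashed), PA in red and WT in blue. Members reach 93.9% in PA and 92.2% in WT at the start, against 69.6% in PA and 67.2% in WT for all genes.

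The promoters behind these peaks were of different kinds. The 250 bases before the start are shown for 4 members on which the results turn: Acsm3 and Acot2, which passed the test between genotypes, and Acsm1 and Acsl1, whose H4K12pr and H4K12ac coverage differed most among synthetases. Start sequences were matched for 40 of the 46 members, and Crat, Decr1, Acat1, Acss3, Acot13 and Acaa2 have none here. The 4 sequences come from RefSeq (GRCm38.p6), run 5′ to 3′ along the plus strand that all 4 genes use, and have each CpG dinucleotide in capitals. The positions are chr7:119760673-119760922 for Acsm3, chr12:83987611-83987860 for Acot2, chr7:119617562-119617811 for Acsm1 and chr8:46470787-46471036 for Acsl1.
Acsm3: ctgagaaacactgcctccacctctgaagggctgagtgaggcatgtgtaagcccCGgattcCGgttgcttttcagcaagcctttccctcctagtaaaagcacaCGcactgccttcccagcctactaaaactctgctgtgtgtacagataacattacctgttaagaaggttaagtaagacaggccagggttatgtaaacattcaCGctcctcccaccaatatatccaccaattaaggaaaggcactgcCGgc
Acot2: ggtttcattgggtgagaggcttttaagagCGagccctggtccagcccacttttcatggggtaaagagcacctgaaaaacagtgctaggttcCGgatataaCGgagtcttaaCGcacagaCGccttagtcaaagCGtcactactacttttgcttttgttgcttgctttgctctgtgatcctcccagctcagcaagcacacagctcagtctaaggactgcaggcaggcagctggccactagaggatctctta
Acsm1: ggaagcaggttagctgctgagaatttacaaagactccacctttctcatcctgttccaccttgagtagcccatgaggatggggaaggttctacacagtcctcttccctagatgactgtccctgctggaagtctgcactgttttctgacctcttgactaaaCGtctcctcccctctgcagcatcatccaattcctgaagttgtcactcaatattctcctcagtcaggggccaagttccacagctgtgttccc
Acsl1: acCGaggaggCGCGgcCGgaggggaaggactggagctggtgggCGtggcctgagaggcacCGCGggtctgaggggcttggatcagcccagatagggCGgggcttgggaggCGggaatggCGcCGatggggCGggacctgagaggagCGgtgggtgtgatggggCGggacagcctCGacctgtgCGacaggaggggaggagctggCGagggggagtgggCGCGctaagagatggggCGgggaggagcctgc
The Acsl1 stretch held 20 CpG, the Acot2 stretch 6, the Acsm3 stretch 5 and the Acsm1 stretch 1. Over the 40 members the number was between 1 and 42 with a median of 13, and over all 12822 tested genes the median was 14. The nuclear receptor half-site AGGTCA, on either strand and overlaps counted, was found in 7 of 40 members (17.5%) and in 11.7% of all tested genes. Those members were Acsl6, Acadvl, Acot4, Acot12, Acadm, Acsm1 and Echs1. The direct repeat AGGTCANAGGTCA was in 0 of 40 members and 0.0468% of tested genes. CCAAT was in 24 of 40 members (60%) and 36.3% of tested genes, GGGCGG in 57.5% of members and 53.4% of tested genes, and TATAAA in Acot4 and Acsm2 (5%) and in 7.96% of tested genes. These matches describe letters in a short window only.

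Members differed widely in how much of the window was covered. The highest was Acot4, a peroxisomal thioesterase in mouse, with 89.2% ± 2.79 in PA and 82.2% ± 3.66 in WT (SD, n = 4 preparations each). Acsl1, the main hepatic long-chain synthetase, led its class with 55.2% ± 3.07 in PA and 56.9% ± 4.15 in WT. Acaa1b, a peroxisomal thiolase, led the oxidation enzymes over all 36 libraries, with 45.6% ± 6.91 in PA and 50.0% ± 5.59 in WT. At the lower end, Acsl6 had 0.239% ± 0.264 in PA and 0.350% ± 0.278 in WT, and was listed at 0 in 27 of 36 libraries and in every library of H4K16ac, H4K16bu, H4K5ac, H4K12ac and H4K16pr. Acss1 had 1.39% ± 0.591 in PA and 0.692% ± 0.708 in WT and was listed at 0 in every H4K16ac library. The lowest thioesterase was Acot8, peroxisomal, with 16.5% ± 1.62 in PA and 18.1% ± 2.35 in WT. The lowest oxidation enzyme was Etfdh, which passes electrons to ubiquinone, with 9.52% ± 1.20 in PA and 8.26% ± 1.82 in WT. In 23 of the 46 windows another protein-coding gene lies, and peaks there were counted for both genes.

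**Figure D2:**
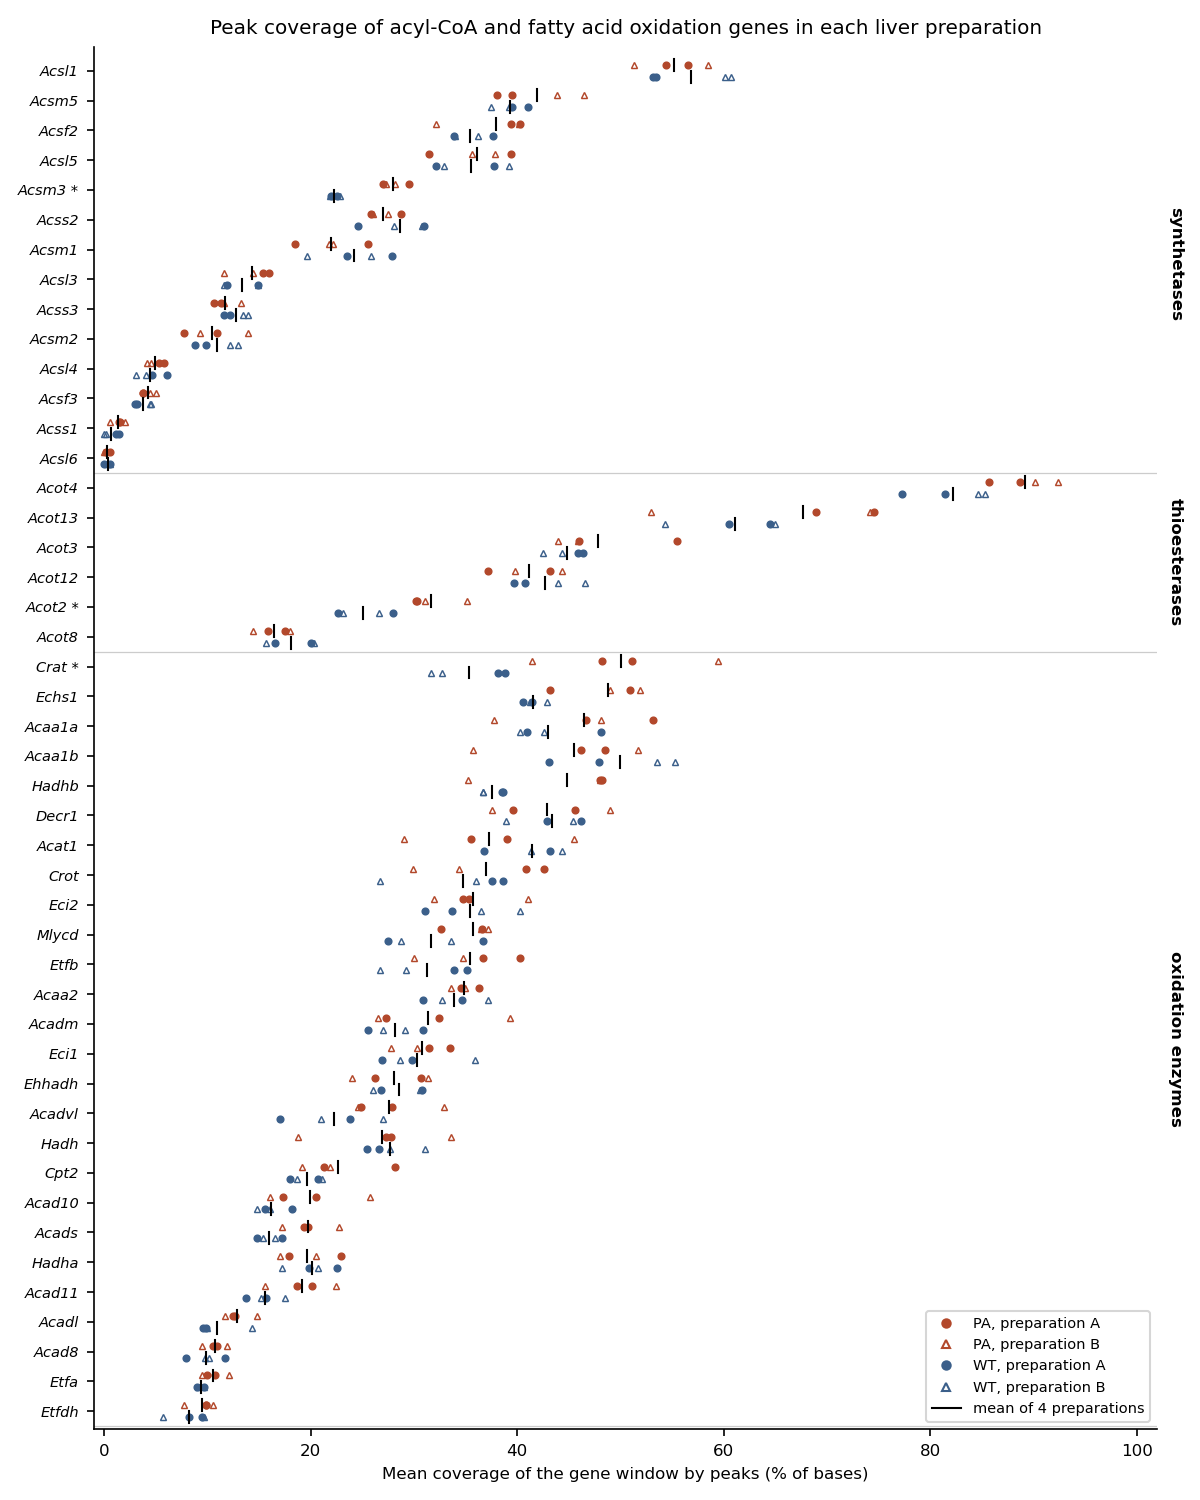
Peak coverage of each member's window (% of bases, mean over the antibodies of a preparation) in the 4 PA preparations (red, upper row of each gene) and the 4 WT preparations (blue, lower row), by class, with the mean as a black bar. Asterisks mark Acsm3, Acot2 and Crat, whose adjusted p is 0.0206, 0.0483 and 0.0387.

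Between genotypes, 3 of the 46 members rose in PA and none fell. They were Acsm3, a medium-chain acyl-CoA synthetase, Acot2, a mitochondrial thioesterase, and Crat, the carnitine acetyltransferase that buffers short-chain acyl-CoA. The test was limma over preparations with the preparation letter as a term and Benjamini-Hochberg adjustment over all genes. By the same rule 18.3% of all 16082 genes were higher in PA and 0.721% lower, so the members' share of calls was below that of the genome. At an unadjusted p under 0.05, 8 of 46 members were higher and 0 lower, beside 36.9% and 1.82% of all genes. The difference was positive in 32 members and negative in 14, beside 13765 positive and 2317 negative among all 16082 genes. Its median was 1.13 percentage points over members and 1.74 over all genes. Quantile normalization was applied to the preparation means, after averaging over antibodies, and gave every preparation the same distribution of coverage. The single libraries were not scaled to each other. After it no member passed in either direction, with 2.54% of genes higher and 2.1% lower. The median difference was then -1.68 points over members and -0.12 over all genes, and at an unadjusted p under 0.05, 14 members were lower and 1 (Crat) higher, beside 12.1% of genes lower and 10.9% higher. The count of members higher in PA thus did not hold under this scaling. Under it 35 of the 46 differences were negative, against 14 before it, beside 8858 negative among all 16082 genes.

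Among the 14 synthetases, 1 rose in PA, beside 18.3% of all genes, and the median difference was 0.459 points, beside 1.74 over all genes. After quantile normalization the median was -2.79 points and 12 of the 14 differences were negative. Acsm3 (chr7:119760883-119784896) had 29.5%, 27.02%, 27.3% and 28.2% in the 4 PA preparations, against 22.0%, 22.5%, 21.9% and 22.9% in the 4 WT preparations. No PA value overlapped a WT value, and this held within preparation A and within preparation B. The difference was 5.69 points (SE 1.18, limma adjusted p = 0.0206), and after quantile normalization it was 1.44 points (unadjusted p = 0.345 by limma). The PA mean was above the WT mean in 9 of 9 antibodies. Such counts of antibodies and the lack of overlap, here and for the genes below, come from the values that the test used. They add no support of their own, and their shares over all genes are not given. The window also holds Eri2, so these peaks cannot be assigned to Acsm3 alone. The excess lay beside blocks covered in nearly all libraries. Along 900 bp upstream of the start (chr7:119758583-119759482), 9 to 12 PA libraries against 2 to 5 WT libraries of 18 had a peak. Along 1400 bp that began at the 3′ end and lay almost wholly beyond the gene (chr7:119784883-119786282), 8 to 18 PA libraries against 0 to 11 WT libraries had one. Inside the gene the order was the other way at 1260 bp from the start, with 11 PA and 17 WT libraries.

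The short-chain synthetases did not pass the test. Acss2, the acetyl-CoA synthetase of cytosol and nucleus, had 27.1% ± 1.33 in PA and 28.6% ± 2.98 in WT (adjusted p = 0.541 by limma). Acss3, a mitochondrial synthetase with activity on propionate, had 11.7% ± 1.14 in PA and 12.8% ± 1.07 in WT (adjusted p = 0.309). Acss1 had 1.42%, 1.53%, 2.02% and 0.594% in PA preparations, against 1.44%, 1.15%, 0% and 0.181% in WT preparations (adjusted p = 0.180). For Acss1 the genotypes overlapped in preparation A and stood apart in preparation B. Acsf3, the mitochondrial malonyl-CoA synthetase, had 4.24% ± 0.613 in PA and 3.80% ± 0.832 in WT (adjusted p = 0.256). The differences of Acss2, Acss3, Acsf3 and Acsl1 were smaller than or close to the spread between preparations.

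Among the 6 thioesterases, 1 rose in PA, beside 18.3% of all genes, and the median difference was 4.81 points, beside 1.74 over all genes. After quantile normalization the median was -2.01 points, with 4 of 6 negative. Acot2 (chr12:83987861-83993877) had 30.2%, 30.3%, 35.2% and 31.0% in PA preparations, against 28.0%, 22.7%, 26.6% and 23.1% in WT preparations. The lowest PA preparation stood above the highest WT preparation. The difference was 6.60 points (SE 1.88, limma adjusted p = 0.0483) and all 9 antibodies had a higher mean in PA. After quantile normalization it was 1.93 points (unadjusted p = 0.326, adjusted p = 0.563). The excess lay upstream of the start, where 7 to 14 PA libraries against 1 to 6 WT libraries had a peak along 1000 bp (chr12:83985561-83986560). Acot4 had 88.7%, 85.7%, 92.3% and 90.1% in PA preparations, against 81.5%, 77.3%, 84.7% and 85.3% in WT preparations. Its values did not overlap either, and the adjusted p was 0.0517, just outside the threshold.

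Among the 26 oxidation enzymes, 1 rose in PA, beside 18.3% of all genes, and the median difference was 2.11 points, beside 1.74 over all genes. After quantile normalization the median was -1.16 points, with 19 of 26 negative. Crat (chr2:30400476-30416017) had 48.3%, 51.1%, 59.5% and 41.4% in PA preparations, against 38.9%, 38.2%, 32.7% and 31.6% in WT preparations. The PA values were more spread than the WT values and did not overlap them. The difference was 14.7 points (SE 3.85, limma adjusted p = 0.0387), with the PA mean higher in 9 of 9 antibodies, and after quantile normalization it was 8.80 points (unadjusted p = 0.0198, adjusted p = 0.136). Its longest stretch of excess was 1600 bp (chr2:30410676-30412275), covered in 12 to 17 PA libraries and 4 to 11 WT libraries of 18, between a pair of blocks covered in most libraries of both genotypes. The Crat window also holds parts of Dolpp1 and Ptpa, so these peaks cannot be assigned to Crat alone.

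**Figure D3:**
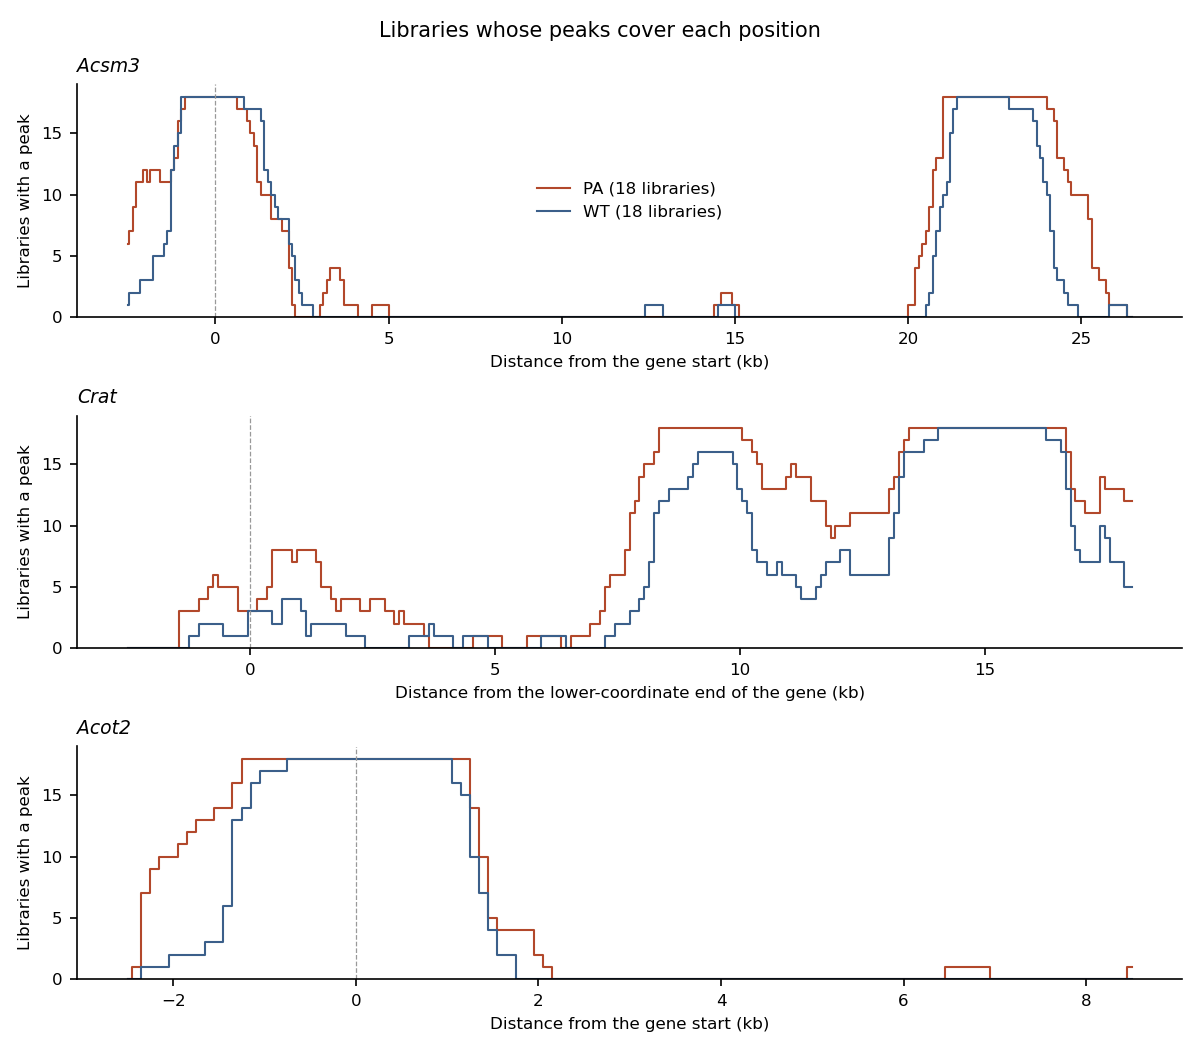
Number of PA (red) and WT (blue) libraries, of 18 each, with a peak at each position of the Acsm3, Crat and Acot2 windows, by distance from the gene start (kb; for Crat, which has no annotated start here, from its lower-coordinate end). PA libraries outnumber WT libraries along the stretches given in the text, for example 7 to 14 against 1 to 6 upstream of Acot2, and not at every edge of a covered block.

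Other oxidation enzymes came near the threshold without passing it. Echs1, the short-chain enoyl-CoA hydratase, had 43.2%, 50.9%, 49.0% and 51.9% in PA preparations, against 41.4%, 40.6%, 41.3% and 42.9% in WT preparations (adjusted p = 0.0556 by limma). Acads, the short-chain acyl-CoA dehydrogenase, had 19.8% ± 2.25 in PA and 16% ± 1.10 in WT (adjusted p = 0.0948). In both, the lowest PA preparation stood only just above the highest WT preparation. Those preparations were of different letters and so carried different antibodies. Hadhb, the beta subunit of the mitochondrial trifunctional protein, had 48.0%, 48.2%, 48.1% and 35.2% in PA preparations, against 38.6%, 38.5%, 36.7% and 36.7% in WT preparations (adjusted p = 0.106). Here 3 PA preparations stood above all of WT, and PA preparation B replicate 2 was below all of WT. Hadha, the alpha subunit, whose window overlaps that of Hadhb, had 19.6% ± 2.68 in PA and 20.1% ± 2.25 in WT (adjusted p = 0.846). Acadm, the medium-chain acyl-CoA dehydrogenase, had 31.4% ± 5.89 in PA and 28.1% ± 2.33 in WT (adjusted p = 0.438), with PA preparations between 26.5% and 39.3%. Acadvl, the very-long-chain dehydrogenase, had 27.6% ± 3.88 in PA and 22.2% ± 4.22 in WT (adjusted p = 0.160), and Acad11 had 19.2% ± 2.91 in PA and 15.6% ± 1.57 in WT (adjusted p = 0.152). Etfb, a subunit of the electron transfer flavoprotein, had 35.4% ± 4.26 in PA and 31.3% ± 3.95 in WT (adjusted p = 0.118). Mlycd, which removes malonyl-CoA, the inhibitor of fatty acid import, had 35.7% ± 2.11 in PA and 31.6% ± 4.27 in WT (adjusted p = 0.248).

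The 3 calls rest on the design. With preparations A and B of 1 number averaged as if from 1 liver, 0 of 46 members and 0 of all genes passed, with 2 livers per genotype. The difference between replicates 1 and 2 correlated between A and B with r = 0.264 in WT and 0.0849 in PA over all tested genes. These values do not settle whether A and B share a liver. Without H4K16ac, without WT preparation A replicate 2 or without WT preparation B replicate 1, 0 members passed, and leaving out 1 preparation at a time gave 0 to 5 members, of which Acsm3 was among the called in 4 of 8, Crat in 2 and Acot2 in 1.

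From a list of 50 other genes of acyl-CoA and fatty acid metabolism, 49 were tested, 6 rose in PA and 1 fell, beside 18.3% and 0.721% of all genes. After quantile normalization 1 was higher (Acox2) and 3 were lower (Acad9, the acetyl-CoA carboxylase gene Acaca and the nuclear receptor gene Ppara). Ppargc1a, a transcriptional coactivator of oxidation genes, had 6.18% ± 0.833 in PA and 3.74% ± 0.558 in WT (adjusted p = 0.00686), with both PA libraries above both WT libraries in 9 of 9 antibodies. Acox2, the peroxisomal branched-chain acyl-CoA oxidase, had 53.0% ± 4.21 in PA and 36.5% ± 2.65 in WT (adjusted p = 0.0111 by limma). It was also called after quantile normalization (adjusted p = 0.0379). Acad9, an acyl-CoA dehydrogenase that also serves assembly of respiratory complex I, had 7.61%, 6.57%, 8.86% and 7.62% in PA preparations, against 17.8%, 13.8%, 15.2% and 15.2% in WT preparations. All PA values lay far below all WT values, and both PA libraries were below both WT libraries in 9 of 9 antibodies. The call held after quantile normalization (limma adjusted p = 0.00874, and 0.00374 normalized). It did not hold in the start window, taken for Acad9 at the gene end with the higher coverage. There the difference had the opposite sign and was not called. The other 4 that rose were Ivd (isovaleryl-CoA dehydrogenase, 18.4% in PA and 13.0% in WT), Auh (a hydratase of leucine breakdown, 9.22% in PA and 6.93% in WT), Acot6 (a thioesterase, 12.2% in PA and 8.47% in WT) and Acnat1 (a peroxisomal acyltransferase, 60.5% in PA and 45.9% in WT). Their adjusted p-values were between 0.0202 and 0.0406. These 4 lost the call after quantile normalization, as did Ppargc1a (adjusted p = 0.0815).

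By single antibody, with 2 PA against 2 WT libraries, limma called 0 genes in all 9 comparisons (0%), members included. At an unadjusted p under 0.05, 0 members were higher and 2 lower in PA for H3K9ac (7.21% and 3.54% of all genes), 2 and 0 for H3K27ac (12.8% and 1.54%), 7 and 0 for H4K16ac (29.3% and 0.182%), and 1 and 0 for H4K16bu (9.89% and 2.86%). In preparation B they numbered 0 and 2 for H4K5ac (13.2% and 1.12%), 4 and 2 for H4K5pr (24.2% and 0.86%), 3 and 1 for H4K12ac (9.84% and 1.46%), 0 and 0 for H4K12pr (6.74% and 1.16%), and 2 and 0 for H4K16pr (11.5% and 0.672%). For H4K16ac the PA mean was above the WT mean in 44 of the 44 members tested and in 12414 of all 13210 genes tested. The median difference was 5.70 points over members and 5.34 over all genes. For Hadhb, H4K16ac peaks covered 41.6% and 44.0% in PA, against 26.7% and 14.8% in WT. For Acsf2, a medium-chain synthetase, they covered 45.2% and 34.7% in PA, against 25.1% and 17.3% in WT. With the spread shared between antibodies in 1 fit of 36 libraries, 5 members were called higher in PA for H4K16ac (Acsf2, Acot2, Acot4, Acot12 and Hadhb), beside 20.3% of all genes, and 1 for H4K5ac (Acot2), beside 5.91%. None was called for the others, beside 1.18% of genes higher for H3K9ac, 2.38% for H3K27ac, 0.348% for H4K16bu, 1.66% for H4K5pr, 1.83% for H4K12ac, 1.6% for H4K12pr and 0.553% for H4K16pr. The 2 WT H4K16ac libraries covered the fewest bases of the 36, and their part in this was not tested.

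Acsl1 had differences of opposite sign with different antibodies, none of them called. It had 50.0% and 41.0% H4K12ac coverage in PA, against 63.2% and 64.5% in WT, and its H4K12pr coverage was 90.5% and 71.4% in PA, against 86.7% and 80.1% in WT. The H4K12ac values of Acsl1 did not overlap between genotypes (unadjusted p under 0.05, not called), whereas the H4K12pr values did. Its H4K16ac coverage went the other way, with 26.5% and 25.0% in PA, against 19.5% and 12.8% in WT. Acsf2 above and Crot, Acsm1, Acsm2, Hadh, Ehhadh, Acaa2 and Acadl below were named after their values were seen.

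**Figure D4:**
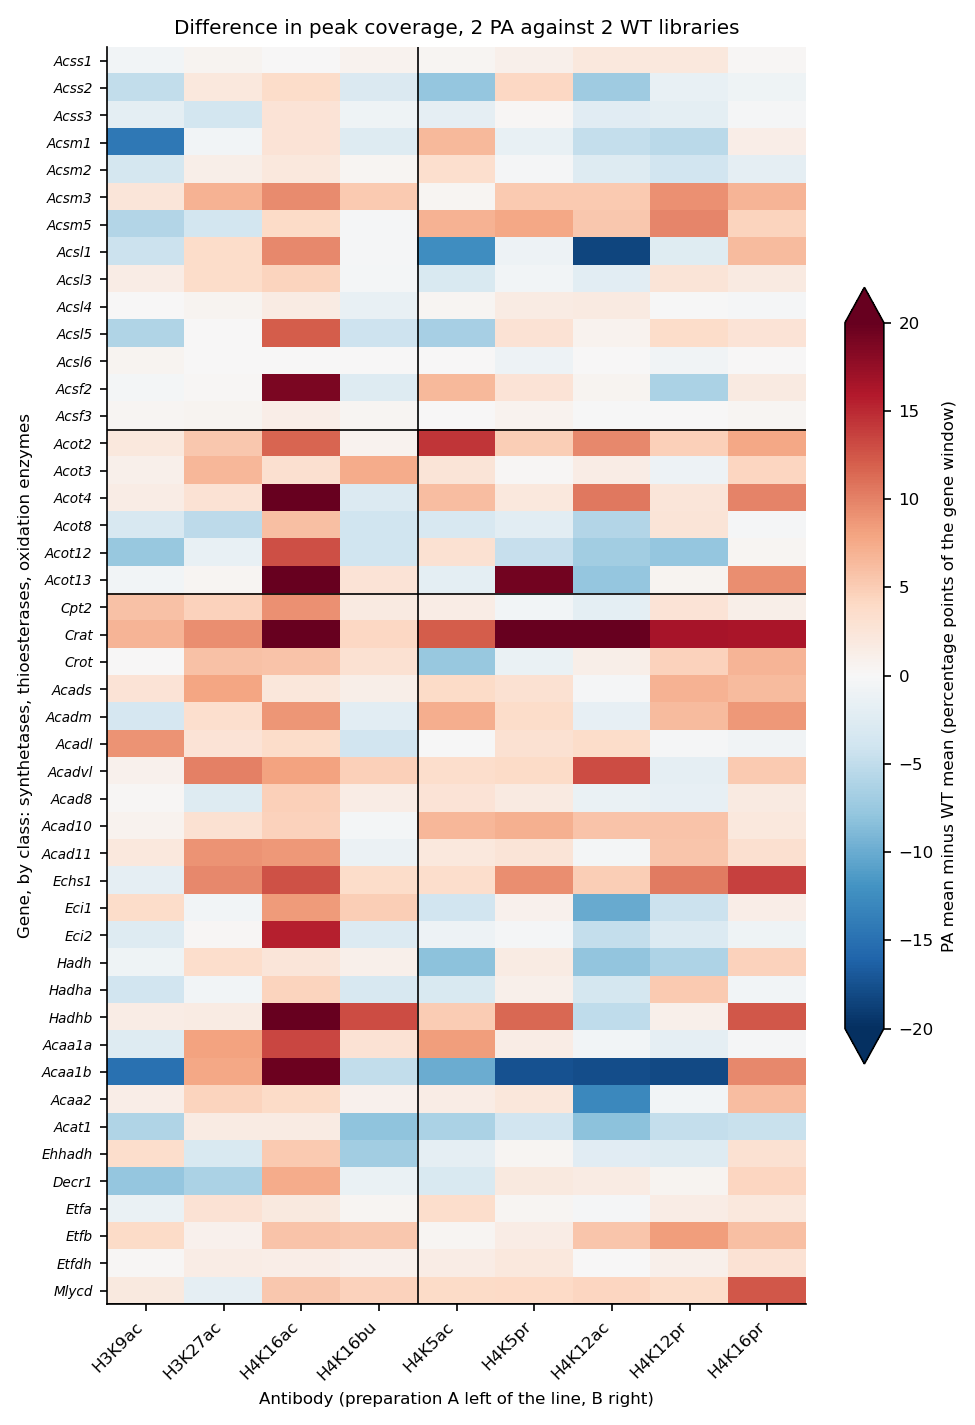
Difference in peak coverage, mean of 2 PA minus mean of 2 WT libraries (percentage points, red higher in PA, blue lower, colours saturating at 20 points), for each member (rows, by class) and antibody (columns). H4K16ac is red in all 44 tested members, beside a higher PA mean in 12414 of all 13210 genes tested, and Crat is red in 9 of 9 antibodies.

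The acyl and acetyl forms of a lysine were compared within preparations, over both genotypes together. A mark is called wider here where its peaks covered more of the gene window, whether by longer peaks or by more of them. H4K12pr was wider than H4K12ac from the same preparations in 40 of 46 members, beside 51.1% of all genes. Among the 40 were all 26 oxidation enzymes, 5 of 6 thioesterases and 9 of 14 synthetases. The median of the difference, taken within preparation, was 5.79 percentage points over members and 0.0247 over all 15179 genes tested. limma called 0 genes for this pair (0%), members included, the smallest adjusted p being 0.107. At an unadjusted p under 0.05, 20 of 46 members were wider in H4K12pr and 0 in H4K12ac, beside 12.4% and 6.32% of all genes. The 20 became 10, beside 7.73% of all genes, with genotype and mark as terms in place of the preparation, and 16, beside 9.76%, after quantile normalization, where the median over members was 3.16 points. H4K12pr was the wider mark in 37 members in PA replicate 1, 37 in PA replicate 2, 35 in WT replicate 1 and 37 in WT replicate 2. The direction was thus shared by both genotypes. Hepatocyte markers had a median of 16.6 points, with 7 of 7 wider in H4K12pr, and the 48 other pathway genes tested had 2.66 points, with 35 wider. Whether the members differ from other genes active in hepatocytes was not tested.

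The members with the widest H4K12pr relative to H4K12ac were Acsl1, Crot, Acaa2, Acaa1b and Acsm1, from different steps of the pathway. For Acsl1 the 4 preparations gave 90.5%, 71.4%, 86.7% and 80.1% in H4K12pr, against 50.0%, 41.0%, 63.2% and 64.5% in H4K12ac, in the order PA 1, PA 2, WT 1 and WT 2. Every H4K12pr value of Acsl1 was above every H4K12ac value. For Crot, the peroxisomal carnitine octanoyltransferase, they gave 60.0%, 51.7%, 63.3% and 39.2% in H4K12pr, against 29.1%, 34.4%, 35.6% and 25.5% in H4K12ac in the same order. For Acsm1, a medium-chain synthetase of liver and kidney, they gave 32.3%, 35.4%, 33.9% and 44.7% in H4K12pr, against 21.1%, 16.2%, 20.5% and 26.2% in H4K12ac. The marks did not overlap in Crot or in Acsm1 either. Acaa2, the mitochondrial thiolase, had 52.2% ± 5.28 in H4K12pr and 34.95% ± 10.03 in H4K12ac, and Acaa1b had 72.0% ± 20.6 in H4K12pr and 55.8% ± 12.5 in H4K12ac (SD, n = 4 preparations of both genotypes), with overlap of the marks in both. The differences were 27.5 points for Acsl1 (SE 4.46, adjusted p = 0.112 by limma), 22.4 for Crot (SE 3.59, adjusted p = 0.110), 17.2 for Acaa2 (SE 3.85, adjusted p = 0.140), 16.2 for Acaa1b (SE 4.65, adjusted p = 0.190) and 15.6 for Acsm1 (SE 2.06, adjusted p = 0.107). The Acsl1 and Acsm1 stretches printed above, with 20 and 1 CpG, stand at opposite ends among these 4 promoters. At the other end of the order, Acsm2 had 9.19% ± 2.33 in H4K12pr and 10.2% ± 2.19 in H4K12ac, and Acsf3 had 4.05% ± 0.150 in H4K12pr and 4.54% ± 0.170 in H4K12ac, with H4K12ac the wider in 4 of 4 preparations of both.

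The extra H4K12pr length was measured inside and outside the start window, which was already covered over a median of 4041 of its 5000 bp and so left little room for a difference. Over the 40 members with a start, the median difference between H4K12pr and H4K12ac was 67.9 bp inside the 5000 bp start window and 1425 bp in the rest of the gene window. In the same order the medians were 0 and 0 bp over all tested genes and 0 and 620 bp over the other pathway genes. Over the hepatocyte markers they were 150 and 3278 bp. The split was thus not particular to the members. The rest of the window also differs in length between genes. For Acsl1 it was 307 bp at the start and 18924 bp elsewhere, for Crot 861 bp and 7235 bp, and for Acsm1 366 bp and 7403 bp. In the start window alone, where genes with no annotated start were given the gene end with the higher coverage, 3 members were wider in H4K12pr at an unadjusted p under 0.05, beside 4.04% of all genes.

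**Figure D5:**
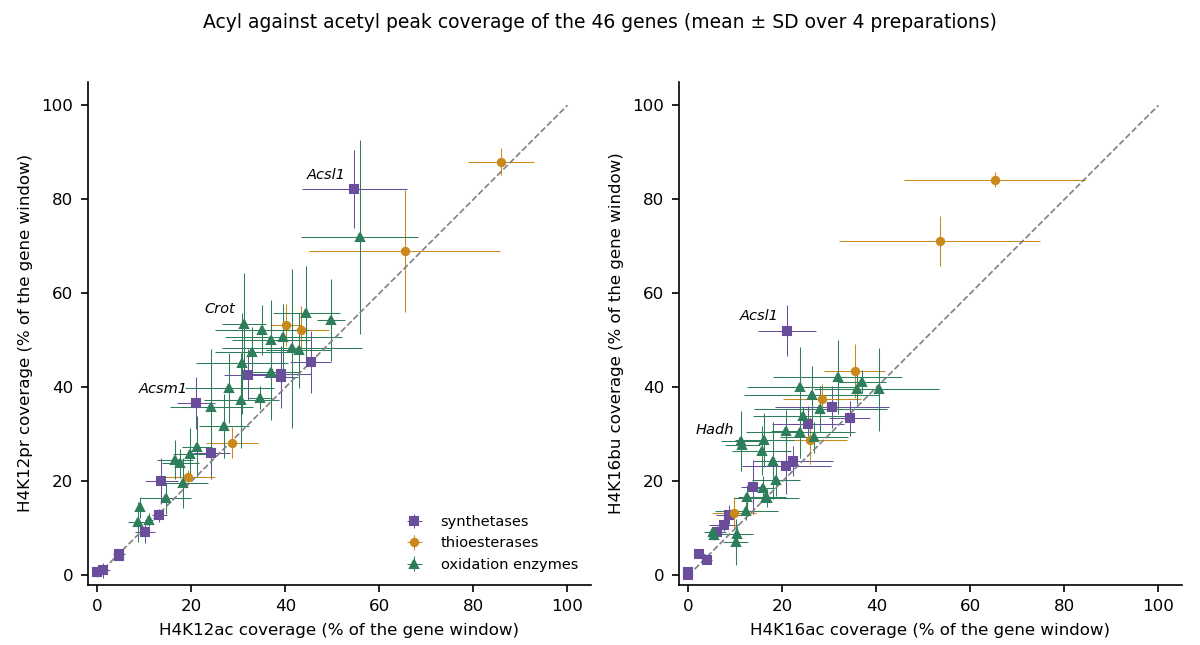
Coverage of each member's window (%, mean ± SD over 4 preparations of both genotypes) by H4K12pr against H4K12ac (left) and by H4K16bu against H4K16ac (right), with the line of equality dashed and the classes by symbol. Of 46 members 40 lie above the line for H4K12, and 39 of the 45 tested do for H4K16, beside 51.1% and 73.5% of all genes.

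H4K16bu was wider than H4K16ac in 39 of 45 members tested (86.7%), beside 73.5% of all genes and 93.5% of the other pathway genes. The median was 4.26 points over members and 1.36 over all genes. limma called 0 genes (0%), and at an unadjusted p under 0.05, 9 members were wider in H4K16bu and 0 in H4K16ac, beside 14% and 0.894% of all genes. The 9 became 20 without PA preparation A replicate 1 (29.3% of all genes), 5 without WT preparation A replicate 1 (7.1%), and 16 with genotype and mark as terms (16% of all genes), where limma called 2 members (Hadh and Acsl1) and 0.331% of all genes as wider in H4K16bu. The median over members was 2.14 points without WT preparation A replicate 2, and after quantile normalization it was 1.56, with -0.517 over all genes. The number of members wider in H4K16bu was 27 in PA replicate 1, 34 in PA replicate 2, 39 in WT replicate 1 and 44 in WT replicate 2, with medians of 0.656, 1.78, 4.55 and 10.2 points. Over all genes the medians in that order were -1.235, 1.203, 1.615 and 4.068 points. Over members the smallest excess was in the PA preparations and the largest in the WT preparation with the shortest H4K16ac list. The order over all genes was the same. Acsl1 again led, with 45.2%, 58.6%, 52.2% and 52.2% in H4K16bu, against 26.5%, 25.0%, 19.5% and 12.8% in H4K16ac, in the order PA 1, PA 2, WT 1 and WT 2. Hadh, the short-chain hydroxyacyl-CoA dehydrogenase, had 27.8% ± 0.903 in H4K16bu and 11.5% ± 3.70 in H4K16ac, and Ehhadh, the peroxisomal bifunctional enzyme, had 28.5% ± 6.34 in H4K16bu and 11.2% ± 4.17 in H4K16ac (SD, n = 4). Acadl had no listed H4K16bu peak in PA replicate 1, with 10.2%, 10.1% and 7.97% in the other 3 libraries.

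H4K5pr and H4K5ac covered these genes alike on average. 23 members were wider in H4K5pr and 23 in H4K5ac, with a median of -0.066 points over members and 0.0667 over all genes. limma called 0 members, beside 0.127% of all genes, and at an unadjusted p under 0.05, 4 members were wider in H4K5pr and 4 in H4K5ac, beside 11.5% and 9.66% of all genes. Acsl1 had 56.7% ± 2.25 in H4K5pr and 47.4% ± 7.38 in H4K5ac, and Acaa1b 46.8% ± 11.8 in H4K5pr and 33.7% ± 5.83 in H4K5ac. In the other direction, Acsm2 had 11.4% ± 1.28 in H4K5pr and 19.9% ± 5.42 in H4K5ac, and Echs1 40.6% ± 6.65 in H4K5pr and 49.7% ± 3.80 in H4K5ac, with H4K5ac the wider in 4 of 4 preparations of both. Hepatocyte markers, by contrast, had a median of 33.1 points in favour of H4K5pr, 7 of 7 in that direction.

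Across antibodies, H4K12pr and H3K27ac covered the members most. The median over members was 39.0% in PA and 39.1% in WT for H4K12pr, and 37.6% in PA and 36.2% in WT for H3K27ac. The lowest median was that of H4K16ac, with 21.9% in PA and 14.1% in WT. For all tested genes the medians were 14.5% in PA and 12.6% in WT for H4K12pr, 15.3% in PA and 13.2% in WT for H3K27ac, and 11.5% in PA and 6.53% in WT for H4K16ac. A second, in-house H4K16pr antibody was applied to 2 WT livers only. It gave medians over members of 3.56% and 12.2%, below those of the commercial H4K16pr antibody in WT, 18.4% and 22.3%. Medians over all tested genes were also lower, with 0.23% and 4.19% for the in-house antibody and 7.35% and 9.74% for the commercial one. In WT replicates 1 and 2, in-house peaks covered 48.0 and 15.6 Mb, and commercial peaks 78.7 and 101.5 Mb. The part of these shorter lists in the lower medians was not tested.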

How the data were processed

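Native ChIP-seq with MNase-digested liver chromatin gave 46 samples, of which 38 had peak lists and were analysed and 8 were inputs, not used here. The deposited values were other than counts: each list, as deposited by the authors, holds chromosome, start and end of peaks, of which the shortest was 500 bp, with no score, so the depth behind a peak is unknown. The submitters' processing notes name cutadapt 3.5, Bowtie2 2.5.1, SAMtools 1.17, R 4.1.2, HOMER 4.10, bedtools 2.31.0 and the build GRCm38, without their roles. The sources used here do not give the peak caller's settings, and the lists are 1 per library.

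Overlapping peaks of a library were merged, and the percentage of each gene window covered was computed for autosomes and X with numpy 2.4.6 and pandas 2.3.3 in Python 3.11.15. Coverage was averaged over antibodies into 4 PA and 4 WT preparations and tested with limma 3.58.1 in R 4.3.3, with a mean-variance trend, genotype and preparation letter as terms, over the 16082 genes that carried a peak in 2 or more of the 36 libraries. Single antibodies were tested on 2 PA against 2 WT libraries, and acyl and acetyl pairs on 8 libraries with the preparation as a term. The threshold was a Benjamini-Hochberg adjusted p of 0.05. The fits were also run on simulated data with independent noise. Those data held no shared livers and no overall difference between genotypes, so they cannot check the calls for either. Gene positions and start sequences were RefSeq's. Genes named with full values were those past the threshold, the 10 members with the smallest p, the highest and lowest of each class, members at 0 in every library of an antibody, and Acss1, Acss2, Acss3, Acsf3, Acadm, Hadha and Mlycd. Others were named after their values were seen. The members, lists and tests were chosen with earlier results of these data known. Alternatives covered the unit, window, scaling, peak filter, model and samples left out.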

Additional observations from a re-analysis of the deposited data

Results flagged for a closer look

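Of 58 groups of 4 preparations examined over the 29 named genes, 3 held a preparation far from the other 3, and chance flags about 1 in 20. Acot2 coverage was 35.2% in PA preparation B replicate 1, against 30.2% to 31.0% in the other PA preparations. Without that preparation Acot2 did not pass the test, while Acsm3 and Crat did. Hadhb coverage was 35.2% in PA preparation B replicate 2, against 48.0% to 48.2% in the other PA preparations, and without it Hadhb passed with an adjusted p of 0.0122 by limma. Mlycd coverage was 32.6% in PA preparation A replicate 2, against 36.5% to 37.1% in the other PA preparations.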

How the results depend on the processing

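Over all genes, 2935 were higher in PA and 116 lower. Higher and lower genes numbered 647 and 36 in the gene start window (for genes with no annotated start, among them Acss3 and Acad9, the gene end with the higher coverage), 408 and 337 after quantile normalization, 1786 and 75 with acetyl marks only, 407 and 35 with propionyl and butyryl marks only, and 0 and 0 with preparations A and B averaged. Genes higher in PA numbered 1688 without the flank, 1733 with equal numbers of peaks, 1889 with no filter, 1819 without the preparation term and 1177 without H4K16ac. Members higher in PA, 3 in the report, numbered 0 in the start window, after quantile normalization, with peaks of at least 1000 bp, with A and B averaged, with propionyl and butyryl marks only and without H4K16ac. They numbered 1 without the flank (Crat), with equal numbers of peaks (Acsm3) and with no filter (Acsm3). Leaving out 1 preparation gave 885 to 3802 genes higher, 68 to 115 lower and 0 to 5 members higher, and no alternative gave a member lower. The replicate block gave 2579 genes higher and 119 lower, and Acot2, Crat and Acsm3 stayed called. It moved no count of members, and Acot6 lost its call. Same-numbered PA and WT preparations had deviations that correlated with r = -0.0166 in A and -0.218 in B. With 2 preparations per letter and genotype, these values cannot decide whether the numbers pair PA with WT. With the numbers of PA preparation B exchanged, chosen after seeing the data, 2734 genes were higher, 123 lower and 2 members higher.

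Class medians moved beyond the spread between preparations under these settings. In the start window they were 3.89 points for synthetases, 7.09 for thioesterases and 5.24 for oxidation enzymes, and after quantile normalization -2.79, -2.01 and -1.16 in that order. For thioesterases the median was 2.34 without the flank, 3.08 with acetyl marks only, 2.18 with propionyl and butyryl marks only and 2.83 without H4K16ac. Leaving out 1 preparation gave -0.0465 to 0.629 for synthetases, 2.89 to 5.45 for thioesterases and 1.39 to 2.74 for oxidation enzymes.

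With the spread shared between antibodies, 5 members were called in H4K16ac and 1 in H4K5ac, beside 20.3% and 5.91% of all genes higher in PA. With genotype and mark as terms, 2 members differed between H4K16bu and H4K16ac (Hadh and Acsl1), beside 0.331% of all genes wider in H4K16bu, and leaving out 1 preparation gave 0 to 2, the 2 without PA A replicate 1, beside 2.89% of all genes. No member differed in the H4K12 and H4K5 pairs under any alternative. The members' median for H4K12pr minus H4K12ac was 3.16 points after quantile normalization, 4.39 with equal numbers of peaks, and 5.02 to 6.89 without 1 preparation.

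Named differences that turned their sign were all uncalled in that alternative, and the cause was not tested. In the start window these were Echs1 (-0.035 points), Acsl1 (2.69), Acsl6 (1.41), Acot8 (10.9), Acaa1b (5.26), Acss2 (1.90), Acss3 (4.60), Hadha (2.67) and Acad9 (2.90). After quantile normalization they were Etfb (-1.03), Etfdh (-0.70), Acsf3 (-0.56), Acadm (-1.49) and Mlycd (-0.92). Acsl1 had 0.0059 on the log2 scale of base pairs, 0.32 points with propionyl and butyryl marks only, and -2.91 to 0.51 without 1 preparation. Acot8 had 1.10 without the flank, Acsl6 0.079 with acetyl marks only, and Acaa1b -6.65 to 0.030 without 1 preparation. Hadha had 0.017 without H3K9ac and -1.43 to 0.59 without 1 preparation. Peak lists carry no depth, so a gene without a listed peak may hold signal below the caller's limit.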
